A study of Mus musculus with 6 samples.

Results

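The 10 genes described here encode the D-type cyclins (Ccnd1, Ccnd2 and Ccnd3), the kinases they bind (Cdk4 and Cdk6), the Ink4 family of inhibitors of those kinases (Cdkn2a, Cdkn2b, Cdkn2c and Cdkn2d) and the Kip inhibitor p27 (Cdkn1b). They were taken by name, as the components that set the activity of the cyclin D kinases, from 29347 genes with any estimated read. All 10 were among the 16656 genes with enough reads to be tested, so no member was lost to the filter on low counts. RNA was sequenced from myeloid splenocytes that stained for CD11b and Gr1 and had been sorted from tumor-bearing Mll-AF9 mice. All animals carried the Mll-AF9 fusion, a knocked-in oncogene that drives acute myeloid leukemia. The design has 3 Rpl22+/+ libraries and 3 Rpl22-/- libraries, the latter from mice that lack the ribosomal protein gene Rpl22 in the germline, and the Rpl22 strains had been bred onto C57BL/6. The labels give no treatment and no age, and the methods of the study describe its Rpl22 mice as young adults. The study names 1 mouse of each genotype for its leukemia explants, and no label ties the replicates to separate animals, so the p-values measure the spread between these libraries only.

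Cyclin D bound to Cdk4 or Cdk6 phosphorylates the retinoblastoma protein and its relatives, which releases E2F transcription factors and lets a cell enter S phase. Ink4 proteins bind Cdk4 and Cdk6 and block their assembly with cyclin D, whereas p27 binds cyclin E and cyclin A complexes and can also sit on cyclin D complexes. The Cdkn2a locus has a further product, p19Arf, which is read from another frame and stabilizes p53 through Mdm2. In blood cells, Cdk6 is the kinase of progenitors and of many acute leukemias, and leukemias driven by Mll fusions are known to depend on it.

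The libraries held 35828500 to 102866127 estimated reads, with Rpl22-/- replicate 1 the shallowest. Rpl22 itself was at 596, 730 and 615 TPM (a level scaled for transcript length and library size) in Rpl22+/+ and at 234, 326 and 290 TPM in Rpl22-/-. It was reduced but not absent, and each library went with its label (log2 fold change -1.27 ± 0.25 SE, adjusted p = 0.0106, edgeR). Rpl22+/+ replicate 2 stood apart from the other Rpl22+/+ libraries in several of the genes below, and the counts it moves most are also given without it. Of the antigens used for the sort, Itgam (CD11b) fell from 537 ± 39.5 to 281 ± 42.5 TPM and Ly6g, part of Gr1, fell from 249 ± 11.9 to 23.7 ± 4.55 TPM (SD, n = 3 each), and both passed the test (adjusted p = 0.00482 and 9.7e-05, edgeR). Ly6c2, the other part of Gr1, was at 1903 ± 250 and 2900 ± 355 TPM (adjusted p = 0.18, edgeR), and Ly6c1 at 23.4 ± 3.72 and 32.0 ± 7.31 TPM (adjusted p = 0.36, edgeR). The summed TPM of 5 primary granule genes, of early myeloid precursors, ran from 2882 to 3761 in Rpl22+/+ and from 26802 to 31976 in Rpl22-/- (5 of 5 called higher), and that of 10 secondary and tertiary granule genes, of later stages, from 54919 to 57803 and from 16423 to 23423 (10 of 10 called lower). Erythroid markers summed to 249 to 288 TPM in Rpl22+/+ and 1686 to 3069 in Rpl22-/-, with 8 of 9 called higher. T cell markers summed to 38.8 to 48.7 and 17.4 to 20.9 TPM, with 7 of 8 called lower. B cell markers summed to 401 to 507 and 288 to 392 TPM, with 1 of 7 called lower. Platelet markers summed to 14.7 to 16.1 and 10.1 to 10.8 TPM, with Itgb3 called lower and Vwf called higher among 5 tested and the defining markers Pf4 and Ppbp under the count filter. Stromal markers summed to 23.7 to 26.5 and 33.5 to 39.1 TPM, with 1 of 4 tested called lower and nearly all of the sum from Pecam1, at 23.6 and 35.6 TPM on average (adjusted p = 0.0513, edgeR). Itgam, Ly6g and most of the granule, erythroid and T cell markers moved with genotype, where 27.6% of all genes were called. The part of any of the markers in the results below was not tested. In such bulk libraries, fewer cells that express a gene and less RNA per cell cannot be told apart.

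Cdkn2a makes its products by joining different first exons to the same second exon, and these sequences are shown because the transcripts are told apart by their first exons. Both are read from the minus strand of chromosome 4 (GRCm38, GENCODE vM21). The coding part of exon 1 is in lower case and the first 60 bases of the shared exon 2 (chr4:89276645-89276985) are in capitals. In Cdkn2a-201, which encodes p16Ink4a (168 residues), exon 1 holds 126 coding bases at chr4:89281986-89282111. In Cdkn2a-202, which encodes p19Arf (169 residues), it holds 190 coding bases at chr4:89294334-89294523, a number not divisible by 3, so that the capitals are read in another frame.
Cdkn2a-201: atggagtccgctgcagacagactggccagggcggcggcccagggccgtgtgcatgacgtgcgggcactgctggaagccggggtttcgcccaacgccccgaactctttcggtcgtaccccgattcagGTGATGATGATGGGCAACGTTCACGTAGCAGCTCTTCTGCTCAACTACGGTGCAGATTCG
Cdkn2a-202: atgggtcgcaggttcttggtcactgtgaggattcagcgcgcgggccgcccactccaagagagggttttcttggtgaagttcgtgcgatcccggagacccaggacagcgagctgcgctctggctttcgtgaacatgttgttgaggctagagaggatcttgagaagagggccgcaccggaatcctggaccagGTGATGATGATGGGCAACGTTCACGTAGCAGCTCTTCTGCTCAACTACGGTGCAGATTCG

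Cdkn2a, Cdkn2b, Cdkn2d and Cdkn1b, which are inhibitors, and the cyclin gene Ccnd3 fell in Rpl22-/-, whereas the cyclin gene Ccnd1 and the kinase gene Cdk6 rose. Ccnd2, Cdk4 and Cdkn2c did not pass the test. A gene was called when its adjusted p-value in the edgeR comparison of the genotypes was under 0.05, at any size of change. Of all 16656 genes tested, 27.6% were called, 13.7% higher and 13.8% lower in Rpl22-/-, while 7 of the 10 members were called, 2 higher and 5 lower. In 8 members the groups did not overlap in CPM (reads scaled to a common library size, with no scaling for length), as was the case for 46.1% of all genes. The median log2 fold change was -0.55 over the members and 0.07 over all genes. Without Rpl22+/+ replicate 2, where 40% of all genes were called, the same 7 members were called. Without any 1 of the other libraries, 15.1% to 20.5% of all genes were called. Ccnd1, Cdk6 and Cdkn2a were called in each of 18 alternative analyses, and leaving out 1 of the other libraries lowered the number of members called to 4 without Rpl22+/+ replicate 3 or Rpl22-/- replicate 1, to 5 without Rpl22-/- replicate 2 or 3 and to 6 without Rpl22+/+ replicate 1.

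**Figure D1:**
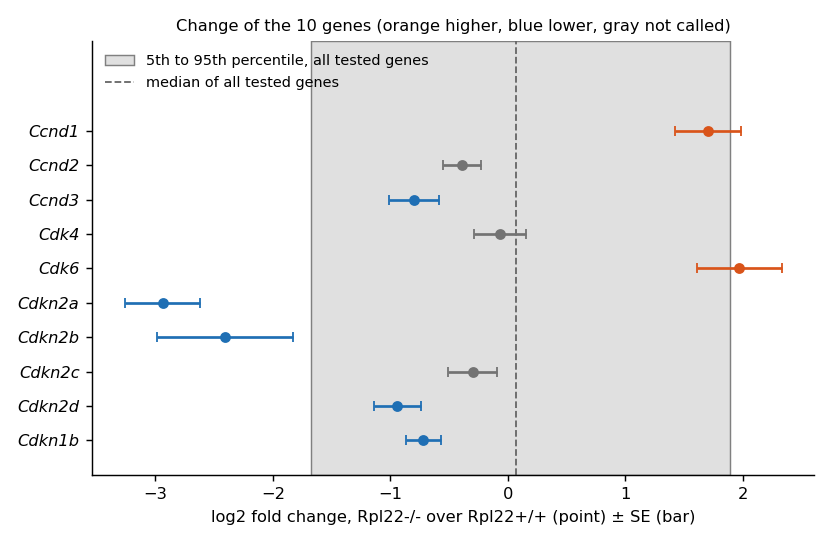
Log2 fold change (x axis, Rpl22-/- over Rpl22+/+, edgeR) with its standard error for each of the 10 genes (y axis), against the range from the 5th to the 95th percentile of all tested genes (gray band, -1.67 to 1.89) and their median (dashed line, 0.07). Cdkn2a and Cdkn2b lie below the band and Cdk6, at 1.97, just above it.

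Among the D cyclins, which differ in the tissues they serve, Ccnd3 was by far the most abundant. Ccnd3 (ENSMUSG00000034165, chromosome 17, 47815976 to 47910616, GRCm39) is the D cyclin of maturing blood cells. Its level was 393, 483 and 415 TPM in Rpl22+/+ and 265, 246 and 256 TPM in Rpl22-/-. The Rpl22-/- libraries lay close together and below every Rpl22+/+ library. In counts it fell with a log2 change of -0.80 ± 0.21 (SE, adjusted p = 0.0295, edgeR). Without Rpl22+/+ replicate 3, Rpl22-/- replicate 1 or Rpl22-/- replicate 3 the change was -0.90, -0.78 and -0.79 and was no longer called (adjusted p = 0.0612, 0.101 and 0.104, edgeR).

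Ccnd1 (ENSMUSG00000070348, chromosome 7, 144483668 to 144493662) is the D cyclin that growth factors induce in many solid tissues. It was at 1.78, 2.08 and 1.67 TPM in Rpl22+/+ and at 4.68, 6.42 and 6.30 TPM in Rpl22-/-. All Rpl22-/- libraries were higher, with replicate 1 the lowest of them. In reads these were 301, 498 and 282 against 451, 1874 and 1807. It rose with a log2 change of 1.70 ± 0.28 (SE, adjusted p = 0.00594, edgeR), and stayed a minor D cyclin. Ccnd2 (ENSMUSG00000000184, chromosome 6, 127102125 to 127129156), the D cyclin that cytokines and Myc induce in blood cells, was at 9.08, 7.60 and 9.08 TPM against 5.26, 6.98 and 7.83 TPM. The groups overlapped in TPM. Its log2 fold change was -0.39 ± 0.16 (SE, adjusted p = 0.115, edgeR), and it was called in 2 of 18 alternatives, those with a correction for GC content (adjusted p = 0.0499, and 0.0256 with the replicate block).

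Summed over the 3 genes, D cyclin transcripts were at 441 ± 46.3 TPM in Rpl22+/+ and 268 ± 7.50 TPM in Rpl22-/- (SD, n = 3 each). Ccnd3 made up 97.6% of this sum in Rpl22+/+ and 95.3% in Rpl22-/-, as means over the libraries. Ccnd1 made up 0.442%, 0.423% and 0.392% against 1.70%, 2.47% and 2.33%. The Ccnd2 share was 1.97% ± 0.379 and 2.50% ± 0.518 (SD, n = 3 each), a difference of 0.527 points with overlapping libraries (exact permutation test, two-sided, p = 0.3, where the smallest p for 3 against 3 is 0.1). In place of TPM, shares of the estimated counts gave a difference of 1.14 points (exact permutation test, p = 0.1).

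**Figure D2:**
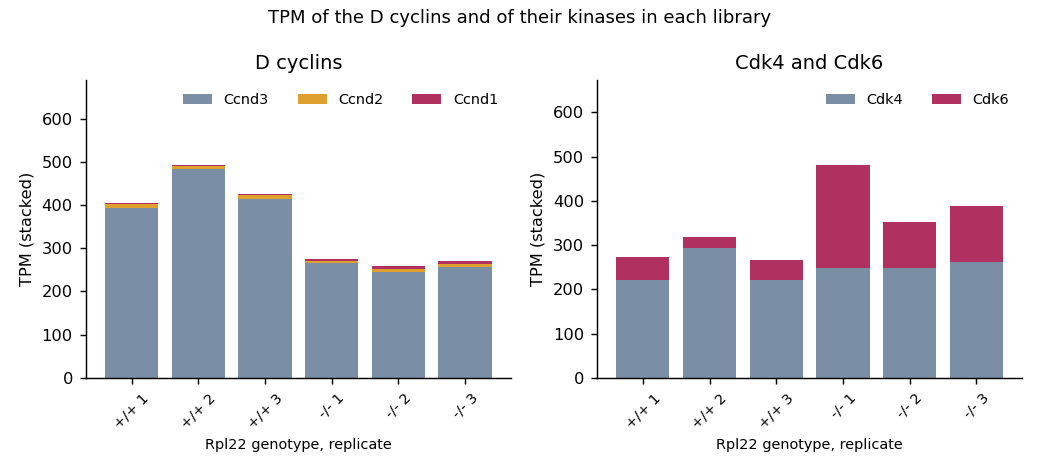
TPM (y axis, stacked from 0) of the D cyclins (left) and of Cdk4 and Cdk6 (right) in each of the 6 libraries (x axis). Ccnd3 fills 94.8% to 98.0% of each left bar, and the Cdk6 part of the right bars is larger in each Rpl22-/- library than in any Rpl22+/+ library.

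Of the kinases, Cdk6 rose and Cdk4 did not pass the test. Cdk6 (ENSMUSG00000040274, chromosome 5, 3391485 to 3581008) was at 51.7, 24.9 and 46.3 TPM in Rpl22+/+ and at 233, 105 and 127 TPM in Rpl22-/-. The groups did not overlap, with Rpl22+/+ replicate 2 the lowest library and Rpl22-/- replicate 1, the shallowest, far above the other Rpl22-/- libraries. Its log2 fold change was 1.97 ± 0.36 (SE, adjusted p = 0.00864, edgeR). Cdk4 (ENSMUSG00000006728, chromosome 10, 126899403 to 126903789) was at 221, 294 and 221 TPM against 248, 248 and 261 TPM. Rpl22+/+ replicate 2 was above, and the other Rpl22+/+ libraries below, all Rpl22-/- libraries. Its log2 fold change was -0.07 ± 0.22 (SE, adjusted p = 0.855, edgeR), and it was called in 0 of 18 alternatives, in which its change ran from -0.21 to 0.17.

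Cdk6 made up 18.9%, 7.81% and 17.3% of Cdk4 plus Cdk6 TPM in Rpl22+/+ and 48.4%, 29.7% and 32.6% in Rpl22-/-. Each Rpl22-/- library was above each Rpl22+/+ library. The mean share was 14.7% ± 6.02 and 36.9% ± 10.1 (SD, n = 3 each), a difference of 22.2 points (exact permutation test, two-sided, p = 0.1, the smallest possible). The sum of both kinases was 286 ± 28.1 and 407 ± 66.1 TPM (SD, n = 3 each), while the D cyclin sum moved the other way. In Rpl22+/+ every library held more D cyclin than kinase transcripts, at 404, 493 and 426 TPM against 273, 318 and 267 TPM. In Rpl22-/- every library held fewer, at 275, 260 and 270 TPM against 481, 353 and 388 TPM. These sums depend on Cdk4 forms that are not annotated as protein-coding. With protein-coding transcripts only, an alternative chosen after seeing the data, Rpl22-/- libraries held 264, 252 and 261 TPM of D cyclins against 301, 182 and 206 TPM of kinases, so that replicates 2 and 3 kept the Rpl22+/+ order. The Cdk6 share was then 43.2%, 19.9% and 39.1% in Rpl22+/+ and 77.0%, 57.3% and 60.7% in Rpl22-/-, a difference of 30.9 points (exact permutation test, two-sided, p = 0.1).

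**Figure D3:**
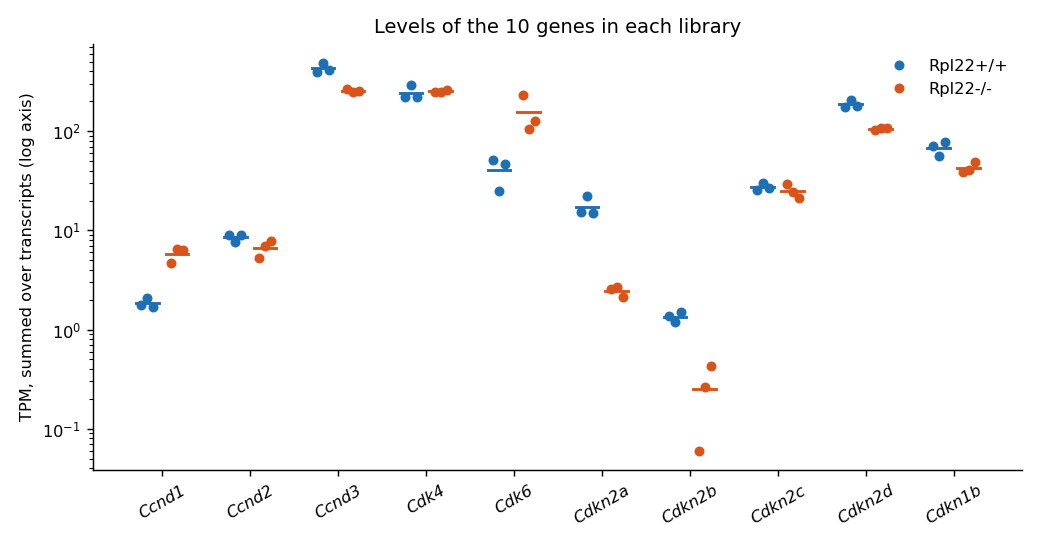
TPM summed over transcripts (y axis, log scale) of each of the 10 genes (x axis) in the 3 Rpl22+/+ libraries (blue) and the 3 Rpl22-/- libraries (orange). Points are libraries and bars are means. The largest separations are those of Cdkn2a and Cdkn2b, at 17.4 and 1.35 TPM on average in Rpl22+/+ and 2.46 and 0.251 TPM in Rpl22-/-.

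Among the Ink4 genes, Cdkn2a, Cdkn2b and Cdkn2d fell, and Cdkn2c did not pass the test. Cdkn2a (ENSMUSG00000044303, chromosome 4, 89192708 to 89212890) was at 15.2, 22 and 14.8 TPM in Rpl22+/+ and at 2.57, 2.66 and 2.15 TPM in Rpl22-/-. The lowest Rpl22+/+ library was far above the highest Rpl22-/- library. In reads these were 573, 1130 and 603 against 50, 157 and 125. It fell 7.70-fold (log2 fold change -2.94 ± 0.32 SE, adjusted p = 0.00114, edgeR), and over 18 alternatives its change ran from -3.11 to -2.39. Cdkn2b (ENSMUSG00000073802, chromosome 4, 89224536 to 89229276) encodes p15Ink4b, an inhibitor that TGF-beta induces and that is often silenced in myeloid leukemia. It was the lowest of the 10 genes, with 89, 105 and 106 reads in Rpl22+/+ and 2, 27 and 43 in Rpl22-/-. Per length that was 1.37, 1.18 and 1.5 TPM against 0.0598, 0.263 and 0.431 TPM. The groups did not overlap, and the Rpl22-/- libraries differed much among themselves. It fell with a log2 change of -2.41 ± 0.58 (SE, adjusted p = 0.0227, edgeR), and without Rpl22+/+ replicate 1, Rpl22+/+ replicate 3 or Rpl22-/- replicate 2 the adjusted p was 0.0556, 0.0715 and 0.0851. On the log2(TPM + 1) scale, which understates changes of low genes, its change was -0.92 (adjusted p = 0.00345, limma).

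Cdkn2d (ENSMUSG00000096472, chromosome 9, 21199706 to 21202703) encodes p19Ink4d, an inhibitor found in many tissues, and was the most abundant Ink4 gene. It was at 175, 206 and 178 TPM in Rpl22+/+ and at 103, 108 and 107 TPM in Rpl22-/-. The groups were well apart and the Rpl22-/- libraries close together. It fell with a log2 change of -0.94 ± 0.20 (SE, adjusted p = 0.0147, edgeR), and was not called without Rpl22-/- replicate 1 or 3 (adjusted p = 0.0637 and 0.0627). Cdkn2c (ENSMUSG00000028551, chromosome 4, 109518073 to 109524386) encodes p18Ink4c, which restrains blood stem cells. It was at 25.7, 30 and 26.9 TPM against 29.2, 24.3 and 21.4 TPM, and the groups overlapped. Its log2 fold change was -0.30 ± 0.21 (SE, adjusted p = 0.35, edgeR), and it was called in 0 of 18 alternatives.

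The 4 Ink4 genes together were at 233 ± 23.4 TPM in Rpl22+/+ and 133 ± 2.33 TPM in Rpl22-/- (SD, n = 3 each). Cdkn2d made up 80.2% and 79.3% of this sum, Cdkn2c 11.8% and 18.7%, Cdkn2a 7.39% and 1.84%, and Cdkn2b 0.588% and 0.190%, as means over the libraries. Cdkn2a and Cdkn2b, with the largest fold changes, held a small part of the Ink4 transcripts in both genotypes. Part of the Cdkn2a level is Arf, which does not bind the kinases.

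Cdkn1b (ENSMUSG00000003031, chromosome 6, 134897364 to 134902476), the gene of p27, was at 71.1, 55.7 and 77.1 TPM in Rpl22+/+ and at 38.9, 40.5 and 48.7 TPM in Rpl22-/-. All Rpl22-/- libraries were lower, and Rpl22+/+ replicate 2 lay nearest to them. It fell with a log2 change of -0.72 ± 0.15 (SE, adjusted p = 0.014, edgeR). The call was lost without Rpl22+/+ replicate 3, Rpl22-/- replicate 1 or Rpl22-/- replicate 2 (adjusted p = 0.0654, 0.0578 and 0.0665).

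By mean TPM, the order in Rpl22+/+ was Ccnd3, Cdk4, Cdkn2d, Cdkn1b, Cdk6, Cdkn2c, Cdkn2a, Ccnd2, Ccnd1 and Cdkn2b, and the only neighbors whose libraries overlapped were Cdk6 and Cdkn2c. In Rpl22-/- the order was Ccnd3, Cdk4, Cdk6, Cdkn2d, Cdkn1b, Cdkn2c, Ccnd2, Ccnd1, Cdkn2a and Cdkn2b. There, Ccnd3 and Cdk4, Cdk6 and Cdkn2d, and Ccnd2 and Ccnd1 overlapped. Cdk6 stood at rank 5 in Rpl22+/+ and at rank 3 in Rpl22-/-, and Cdkn2a at rank 7 and rank 9. With protein-coding transcripts only, Cdk4 averaged 79.8 and 76.1 TPM and stood at rank 3, below Cdkn2d, in Rpl22+/+ and at rank 4, below Cdk6 and Cdkn2d, in Rpl22-/-, where Cdk6 was at rank 2.

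At the Cdkn2a locus, both transcripts fell. Cdkn2a-201 (p16Ink4a) was at 5.33, 8.76 and 4.95 TPM in Rpl22+/+ and 0.756, 1.21 and 0.441 TPM in Rpl22-/-. Cdkn2a-202 (p19Arf) was at 9.88, 13.3 and 9.86 TPM against 1.82, 1.45 and 1.71 TPM. Neither transcript overlapped between the groups, and Rpl22+/+ replicate 2 was highest for both. Over 57835 transcripts tested, 6.94% were called, 3.10% higher and 3.84% lower in Rpl22-/-. Cdkn2a-201 changed by -3.14 ± 0.62 and Cdkn2a-202 by -2.92 ± 0.33 in log2 (SE, adjusted p = 0.0364 and 0.00733, edgeR). At the transcript level the call of Cdkn2a-201 was lost when any 1 of the 6 libraries was left out (adjusted p from 0.056 to 0.154), and that of Cdkn2a-202 when any Rpl22-/- library was (0.0504 to 0.062).

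The Arf transcript made up 65.0%, 60.2% and 66.6% of Cdkn2a TPM in Rpl22+/+ and 70.6%, 54.4% and 79.5% in Rpl22-/-. The Rpl22-/- shares, which rest on 50 to 157 reads, lay on both sides of the Rpl22+/+ shares. The means of 63.9% ± 3.29 and 68.2% ± 12.7 (SD, n = 3 each) differed by 4.24 points (exact permutation test, two-sided, p = 0.7), and without Rpl22-/- replicate 3 the difference was -1.41 points. A shift in the use of the first exons was not detectable at this depth.

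**Figure D4:**
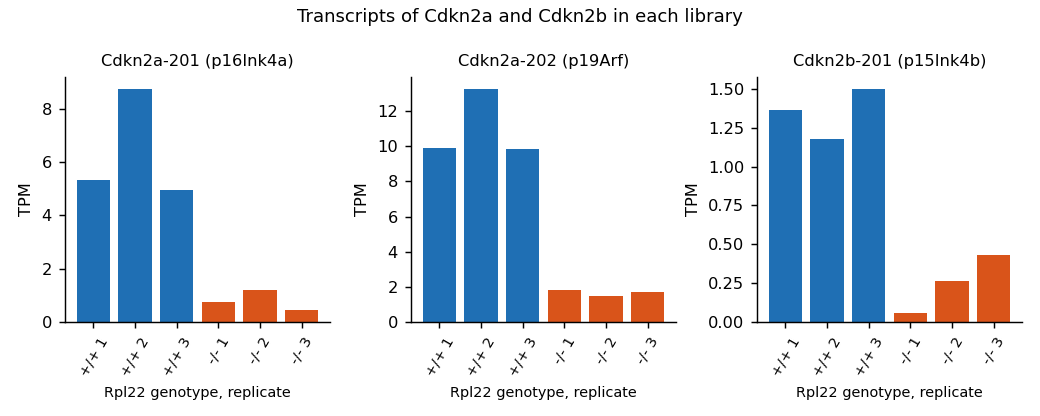
TPM (y axis, from 0, scaled for each panel) of Cdkn2a-201, Cdkn2a-202 and Cdkn2b-201 in each library (x axis, Rpl22+/+ in blue, Rpl22-/- in orange). Every Rpl22-/- bar is lower than every Rpl22+/+ bar, and the highest Rpl22-/- values are 1.21, 1.82 and 0.431 TPM.

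The promoters of the locus are shown because transcripts from its 3 starts were lower in every Rpl22-/- library. Each run holds 300 bases, 250 before and 50 after the start, on the minus strand of chromosome 4 (RefSeq, GRCm38.p6), in lower case except for words of 8 bases that E2F factors are known to bind. The words searched on both strands were TTTCCCGC, TTTCGCGC, TTTGCCGC and TTTGGCGC, and 2.26% of 32817 promoters of this length held at least 1. The runs lie at chr4:89294570-89294869 (Arf start), chr4:89282143-89282442 (Ink4a start) and chr4:89310983-89311282 (Cdkn2b).
Arf start: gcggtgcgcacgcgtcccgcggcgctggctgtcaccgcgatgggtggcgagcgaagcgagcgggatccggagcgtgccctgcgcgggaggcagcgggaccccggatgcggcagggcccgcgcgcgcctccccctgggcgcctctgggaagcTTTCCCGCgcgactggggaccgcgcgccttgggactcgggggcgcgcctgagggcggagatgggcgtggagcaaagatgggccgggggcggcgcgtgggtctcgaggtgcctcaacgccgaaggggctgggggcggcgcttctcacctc
Ink4a start: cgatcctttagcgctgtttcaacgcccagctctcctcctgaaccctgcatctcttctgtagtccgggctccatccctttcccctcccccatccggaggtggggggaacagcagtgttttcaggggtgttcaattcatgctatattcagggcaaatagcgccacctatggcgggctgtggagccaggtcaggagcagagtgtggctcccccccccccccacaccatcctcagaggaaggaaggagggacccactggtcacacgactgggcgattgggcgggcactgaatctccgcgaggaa
Cdkn2b: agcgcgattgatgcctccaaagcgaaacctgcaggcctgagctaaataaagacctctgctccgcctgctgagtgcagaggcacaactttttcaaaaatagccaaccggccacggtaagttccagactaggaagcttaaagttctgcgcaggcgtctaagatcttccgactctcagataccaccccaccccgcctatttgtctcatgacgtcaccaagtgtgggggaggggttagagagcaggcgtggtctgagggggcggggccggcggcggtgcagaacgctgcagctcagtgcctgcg

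The Arf window held 1 such word, TTTCCCGC, and the other 2 windows held 0. Over the 11 promoter windows found for 8 members (Ccnd1 and Ccnd2 had none in the table), it was the only one with a match. CpG dinucleotides numbered 45 in the Arf window, 12 in the Ink4a window and 18 in the Cdkn2b window, against a median of 7 over all promoters. The Arf window held more CpG than 98.1% of promoters. These matches describe the sequence and are not evidence of binding.

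Cdkn2a and Cdkn2b lie side by side, and the tested genes next to the pair, Mtap and Tusc1, did not pass the test. The tested genes before Cdkn2a in genome order, Ifnz and Mtap, the latter an enzyme of methionine salvage that is often deleted with CDKN2A in tumors, changed by 1.19 ± 0.99 and -0.38 ± 0.17 (SE, adjusted p = 0.433 and 0.144, edgeR). Ifnz was near the floor, at 0.0937 CPM on average in Rpl22+/+ and 0.213 CPM in Rpl22-/-. Beyond Cdkn2b, Tusc1, which starts 4.03 Mb from Cdkn2a, changed by 0.54 ± 0.25 (SE, adjusted p = 0.16, edgeR). The next tested gene, Caap1, at 5.2 Mb, was called higher (0.50 ± 0.14 SE, adjusted p = 0.0428, edgeR). Of 15 other protein-coding genes tested within 5 Mb of Cdkn2a, Focad was called higher and Hacd4 lower (0.78 ± 0.22 and -1.20 ± 0.16 SE, adjusted p = 0.0395 and 0.00256, edgeR), with a median of 0.42. A processed pseudogene in this window, Mrpl48-ps, was also called lower, at 1.71 CPM on average against 0 (adjusted p = 0.000995, edgeR), and its reads are uncertain where they match its parent gene. Over the 832 tested genes of chromosome 4, which also carries Rpl22, 278 were called higher and 61 lower, and the median was 0.44. Cdkn2a, Cdkn2b and Cdkn2c, the last at -0.30 and not called, lay below the median of their chromosome. So did Cdkn2d, at -0.94, on chromosome 9, where the median of 757 genes was 0.34. Every other chromosome had a median between -0.08 and 0.11.

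Transcripts were also separated for the other members. GENCODE vM21 lists 58 transcripts of the 10 genes, all of which were in the files, and 43 passed the count filter. Of these, 3 were called higher (Ccnd1-201, Cdk6-202 and Cdk6-206) and 3 lower (Ccnd3-208, Cdkn2a-201 and Cdkn2a-202). Ccnd1-201, the full-length form of 295 residues, was at 1.52, 1.84 and 1.30 TPM in Rpl22+/+ and 4.56, 6.12 and 6.01 TPM in Rpl22-/- (log2 fold change 1.68 ± 0.34 SE, adjusted p = 0.0399, edgeR), and it was called in 5 of 11 alternatives, leaving out Rpl22+/+ replicate 2 being the only omission that kept the call. Ccnd3-208, a transcript of 931 bases whose annotated coding sequence is 96 residues long, was at 40.4, 44.9 and 51.3 TPM in Rpl22+/+ and 9.62, 9.56 and 12.4 TPM in Rpl22-/-. It changed by -2.26 ± 0.24 (SE, adjusted p = 0.00633, edgeR) and was called in all 11 alternatives of the transcript test. Ccnd3-205, with the full coding sequence of 292 residues, was at 311, 395 and 322 TPM against 233, 219 and 224 TPM. All Rpl22-/- values were lower, but it did not pass the test over transcripts (log2 fold change -0.79 ± 0.25 SE, adjusted p = 0.135, edgeR).

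Cdk6-202, a transcript of 11525 bases of which 10217 follow the coding sequence, was at 44.1, 16.8 and 36.7 TPM in Rpl22+/+ and 207.9, 91.1 and 108 TPM in Rpl22-/-. It held 67.5% to 85.4% of Cdk6 TPM in Rpl22+/+ and 85.6% to 89.3% in Rpl22-/-, so most of the level of the gene was its long form. Its log2 fold change was 1.90 ± 0.35 (SE, adjusted p = 0.0285, edgeR), and it was not called when any library but Rpl22+/+ replicate 2 was left out (adjusted p from 0.0743 to 0.115). Cdk6-205, of 425 bases, was at 5.03, 4.04 and 5.67 TPM against 14.5, 8.04 and 11.7 TPM (adjusted p = 0.0935, edgeR). Cdk6-206, an intron-retaining transcript at 0.0729 to 1.37 TPM over the 6 libraries that is named because it was called, had an adjusted p of 0.04 and was called in 1 of 11 alternatives.

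Most Cdk4 TPM was assigned to short forms. Cdk4-209, which retains an intron, was at 86.6, 122 and 87.8 TPM in Rpl22+/+ and 105, 104 and 109.7 TPM in Rpl22-/-. Cdk4-205, of 950 bases and with no annotated stop codon, was at 56.3, 82.5 and 58.2 TPM against 58.5, 64.2 and 66.4 TPM. Cdk4-208, annotated as a target of nonsense-mediated decay, was at 44.0, 55.9 and 43.9 TPM against 47.8, 46.9 and 47.7 TPM. None of these passed the test (adjusted p = 0.951, 0.755 and 0.77, edgeR). Cdk4-201, of 2053 bases, held 2.06% to 4.72% of Cdk4 TPM, so the Cdk4 level rests on how reads were divided among overlapping transcripts.

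Cdkn2d-203, which encodes 166 residues, was at 115.9, 138 and 128.7 TPM in Rpl22+/+ and 57.1, 68.5 and 68.4 TPM in Rpl22-/- (log2 fold change -1.14 ± 0.26 SE, adjusted p = 0.0577, edgeR). Cdkn2d-201, annotated with 50 residues, was at 39.4, 42.6 and 32.2 TPM against 35.6, 30.3 and 26.7 TPM (adjusted p = 0.335), and Cdkn2d-202 at 19.5, 25.5 and 17.5 TPM against 9.95, 9.02 and 11.7 TPM (adjusted p = 0.0832). The groups were apart for Cdkn2d-203 and Cdkn2d-202 and overlapped for Cdkn2d-201. Of the p27 transcripts, Cdkn1b-201 was at 40.1, 41.2 and 43.5 TPM against 24.5, 28.9 and 35.3 TPM. Cdkn1b-202, which has the longer tail after the coding sequence (3439 against 1280 bases), was at 25.0, 9.69 and 26.5 TPM against 14.4, 11.2 and 13.4 TPM. The low value of Cdkn1b-202 in Rpl22+/+ replicate 2 placed that library below all Rpl22-/- libraries, and each of the pair had an adjusted p of 0.206 (edgeR). The main transcripts of Ccnd2 and Cdkn2c were not called. Ccnd2-201 was at 5.91, 5.52 and 4.82 TPM against 4.81, 4.38 and 4.37 TPM (adjusted p = 0.291, edgeR), and Cdkn2c-202 at 18.7, 22.1 and 17.3 TPM against 18.9, 17.1 and 14.6 TPM (adjusted p = 0.466, edgeR). The short forms Ccnd1-202, Ccnd2-204 and Ccnd2-206 were at 0 in at least 1 library each, and Cdkn2c-201 was at 6.74 to 10.3 TPM over the 6 libraries.

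Over the 108 other genes listed for the pathway, 105 were tested, and 14 were called (13.3%, against 27.6% of all genes), 5 higher and 9 lower. Their median log2 fold change was 0.05. Most of the listed genes around the members were not called. This share changed with Rpl22+/+ replicate 2 and with the scaling. Without that library the count was 45 (27 higher, 18 lower), or 42.9% against 40% of all genes, and with library totals in place of TMM scaling it was 27 (20 higher, 7 lower), or 25.7% against 34.6%, a scaling that moved the median of all genes from 0.07 to 0.19. Lin54 is not analysed here, and Ccna1 and Tbx3 did not pass the count filter.

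**Figure D5:**
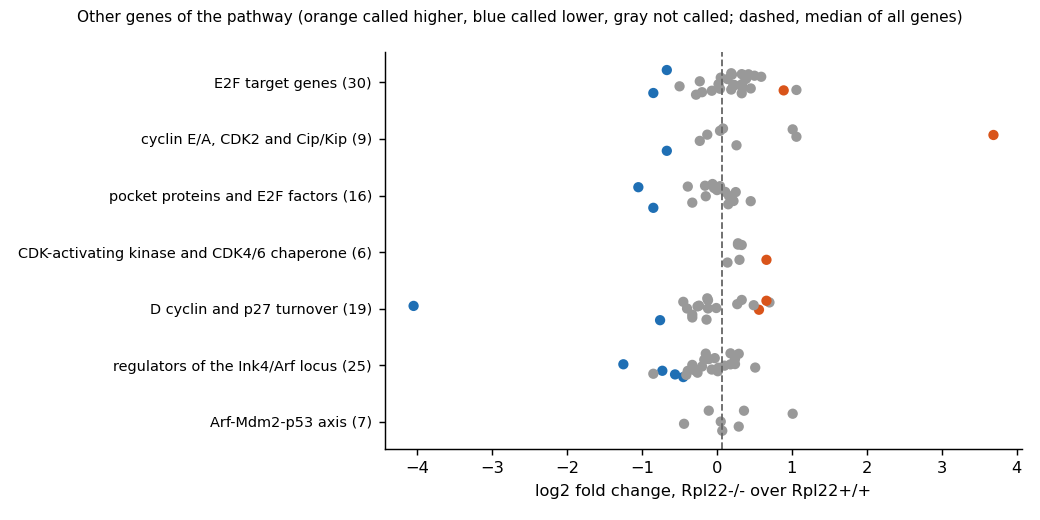
Log2 fold change (x axis, Rpl22-/- over Rpl22+/+, edgeR) of each tested gene of 7 lists around the cyclin D kinases (y axis, number tested in brackets). Orange points were called higher, blue points called lower and gray points not called, and the dashed line is the median of all genes. Most points are gray and lie within 1 log2 unit of 0, and the called genes beyond that are Cdkn1c at 3.69, Cryab at -4.05, Ets1 at -1.25 and E2f5 at -1.05.

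E2F target genes, which encode the replication machinery, were mostly not called. Of 30, 1 was called higher and 2 lower, 23 had a positive and 7 a negative log2 fold change, and the median was 0.22. Orc1, a subunit of the origin recognition complex, rose from 2.72, 2.49 and 2.65 to 5.85, 4.66 and 5.79 TPM (log2 fold change 0.89 ± 0.14 SE, adjusted p = 0.0053, edgeR). Ccna2, the cyclin of S phase and mitotic entry, fell from 72.8, 64.5 and 71.4 to 55.0, 43.6 and 44.5 TPM (-0.67 ± 0.14 SE, adjusted p = 0.0129, edgeR), a call that was lost without Rpl22-/- replicate 3. Without Rpl22+/+ replicate 2, 14 were called higher and 4 lower, with a median of 0.35, where 20.7% of all genes were called higher and 19.3% lower. With all 6 libraries, 9 were called higher with library totals, 13 on either log2 TPM scale and 10 with the GC correction and the replicate block, with 2 or 3 lower, where 21.3%, 19.3% to 19.7% and 21.9% of all genes were called higher.

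Of 16 pocket proteins and E2F factors tested, 0 were called higher and 2 lower by edgeR. E2f2, an activating E2F that is also on the target list, fell from 89.4, 98.6 and 92.1 to 57.0, 54.8 and 54.9 TPM (-0.85 ± 0.19 SE, adjusted p = 0.0171, edgeR), and E2f5, a repressing one, from 2.16, 1.16 and 1.83 to 0.862, 0.808 and 0.913 TPM (-1.05 ± 0.24 SE, adjusted p = 0.0186, edgeR). Neither overlapped between the groups. Both calls were lost without Rpl22-/- replicate 1 or 3, 1 gene was called lower without Rpl22+/+ replicate 1 or 3 or Rpl22-/- replicate 2, and 2 genes were called higher and 3 lower without Rpl22+/+ replicate 2. With all 6 libraries, 3 were called higher with library totals and 2 on either log2 TPM scale. Of all genes, 20.7% were called higher and 19.3% lower without Rpl22+/+ replicate 2, and 8.25% to 10.9% lower without any 1 of the other libraries. Library totals gave 21.3% called higher and the log2 TPM scales 19.3% to 19.7%. Rb1, the substrate itself, was at 32.6, 8.58 and 32.3 against 26.8, 14.8 and 21.2 TPM (adjusted p = 0.508, edgeR), with Rpl22+/+ replicate 2 the lowest library.

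Of 9 genes of the cyclin E, cyclin A, Cdk2 and Cip/Kip group tested, Cdkn1c rose and Ccna2 fell. Cdkn1c, the third Kip inhibitor (p57), was at 2.12, 2.10 and 1.87 TPM in Rpl22+/+ and 29.6, 29.0 and 30.2 TPM in Rpl22-/-. Every Rpl22-/- library was far above every Rpl22+/+ library (3.69 ± 0.20 SE, adjusted p = 8.36e-05, edgeR), so the Kip genes Cdkn1b and Cdkn1c moved in opposite directions. Cdkn1a, the p53 target gene of p21, was at 34.3, 56.0 and 50.5 against 43.5, 75.9 and 190 TPM and did not pass the test (adjusted p = 0.238, edgeR).

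Of 6 genes of the CDK-activating kinase and the chaperone of Cdk4 and Cdk6, Ccnh rose from 18.3 ± 2.75 to 32.5 ± 4.29 TPM (SD, n = 3 each, adjusted p = 0.0112, edgeR) and 5 were not called. There were 3 called higher without Rpl22+/+ replicate 2 and 0 without Rpl22-/- replicate 2, and with all 6 libraries 3 with library totals and 0 with the GC correction, with 0 lower in each. Over all genes, 20.7% were called higher without Rpl22+/+ replicate 2 and 21.3% with library totals. Of 19 genes for the breakdown of D cyclins and p27, 2 rose and 2 fell. Skp1, a core subunit of SCF ubiquitin ligases, rose from 57.7 ± 17.4 to 89.2 ± 10.9 TPM and Rnf123, a ligase subunit for p27, from 30.2 ± 4.86 to 51.5 ± 7.99 TPM (SD, n = 3 each, adjusted p = 0.0464 and 0.00896, edgeR). Gsk3b, a kinase that marks cyclin D1 for export and breakdown, fell from 24.4 ± 4.33 to 14.9 ± 2.04 TPM (adjusted p = 0.0072, edgeR), and Cryab, a small heat shock protein, from 46, 67 and 38 reads to 1, 5 and 4 (adjusted p = 0.0012, edgeR). In this list 5 were called higher and 4 lower without Rpl22+/+ replicate 2, 0 higher and 2 lower without Rpl22+/+ replicate 3, and 1 higher and 2 lower without any 1 of the other 4 libraries and with DESeq2 size factors, the DESeq2 test, no filter or the length offset. There were 4 higher and 2 lower with library totals and on either log2 TPM scale, and 4 higher and 5 lower with the GC correction and the replicate block. Of all genes, 20.7% were called higher and 19.3% lower without Rpl22+/+ replicate 2, and 6.76% and 8.33% without Rpl22+/+ replicate 3. The settings with 1 higher and 2 lower had 7.57% to 14.9% higher and 7.33% to 16.6% lower. Library totals gave 21.3% and 13.3%, and the log2 TPM scales 19.3% to 19.7% and 12.8% to 12.9%. The GC correction with the replicate block gave 21.9% and 22.5%.

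Regulators of the Ink4/Arf locus include the Polycomb complexes that silence it and factors that activate it. Of 25 tested, 0 were called higher and 4 lower by edgeR, with a median of -0.15. The activator Ets1 fell from 73.7, 64.3 and 69.6 to 29.5, 29.1 and 30.3 TPM (-1.25 ± 0.13 SE, adjusted p = 0.000804, edgeR). The Polycomb genes Ezh1 and Rnf2 fell from 21.4 ± 3.21 to 16.4 ± 2.22 TPM and from 19.1 ± 3.70 to 15.2 ± 0.706 TPM (SD, n = 3 each, adjusted p = 0.0124 and 0.0297, edgeR). For both, the groups overlapped in TPM but not in CPM. The fourth was Kdm6b, a demethylase that removes the Polycomb mark (-0.73 ± 0.21 SE, adjusted p = 0.0452, edgeR), which is named to complete the count. Ezh2 and Bmi1, which silence the locus in progenitors, were not called (0.02 and 0.51, adjusted p = 0.968 and 0.173, edgeR). With library totals in place of TMM scaling, 1 regulator was called higher and 2 lower, on either log2 TPM scale 2 higher and 2 lower, and with the GC correction and the replicate block 1 higher and 7 lower. Without Rpl22+/+ replicate 2 there were 2 higher and 7 lower, and without any 1 of the other libraries 0 higher and 1 or 2 lower, the lowest without Rpl22+/+ replicate 3. Of all genes, 20.7% were called higher and 19.3% lower without Rpl22+/+ replicate 2. Without any 1 of the other libraries 8.25% to 10.9% were called lower. With library totals 21.3% were higher and 13.3% lower, on the log2 TPM scales 19.3% to 19.7% and 12.8% to 12.9%. The GC correction with the replicate block gave 21.9% higher and 22.5% lower.

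Of the 7 genes through which Arf acts on p53, 0 were called in either direction in the main edgeR comparison. Trp53 was at 67.9 ± 9.16 and 77.0 ± 5.47 TPM and Mdm2 at 54.6 ± 21.1 and 55.1 ± 21.3 TPM (SD, n = 3 each, adjusted p = 0.835 and 0.93, edgeR). At this spread, a change in either gene was not detected. With all 6 libraries, 1 of the 7 was called lower by the DESeq2 test and with the GC correction, with or without the replicate block. Without Rpl22+/+ replicate 2, 1 of the 7 was called higher and 1 lower, where 20.7% of all genes were called higher and 19.3% lower.

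Among 11849 other protein-coding genes with a mean of at least 50 reads, the ones whose log2 CPM followed Cdkn2a most closely over the 6 libraries were Limk2, Anxa11 and Arhgap9, with Pearson correlations of 0.9998, 0.9993 and 0.9991. Their log2 fold changes were -0.88, -1.39 and -1.27. Cdk6 was followed most closely by Gpc2, Myb and Zfp109, at 0.9997, 0.9983 and 0.9980, with log2 fold changes of 1.63, 1.42 and 1.29. Over 6 libraries that differ by genotype such values are common: 1875 genes reached 0.9 with Cdkn2a and 918 with Cdk6.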

How the data were processed

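Poly(A) RNA of 6 libraries, 3 for each genotype, was sequenced with a stranded kit. Per the study's methods and the labels, Trimmomatic removed adaptors and Salmon estimated transcript levels for GRCm39, and their versions were not given in the sources used here. The authors deposited an estimated count and a TPM value for each transcript. The authors' own genotype comparison was deposited as 1 more table (base mean, log2 fold change and p-values), of which only identifiers and GRCm39 positions were used here.

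Transcripts were joined to genes with GENCODE vM21 by unversioned identifier. Of 276623 transcripts 136036 (49.2%) were matched, with 98.0% to 98.1% of the reads, and reads of any unmatched member transcript are not counted. Skp1 was matched by its older symbol, Skp1a, and Azu1 matched no gene. Summed counts were rounded, and genes were tested in edgeR 4.0.16 (R 4.3.3, quasi-likelihood F test) after filterByExpr and TMM scaling, with genotype as the only term and Benjamini-Hochberg adjustment over all 16656 genes, and transcripts likewise over 57835. Standard errors are those implied by the F statistic. Shares were compared with exact permutation tests (scipy 1.17.1). DESeq2 1.42.0, limma-voom and limma-trend (limma 3.58.1) on log2(TPM + 1) and log2(TPM + 0.1), other scalings and filters, a length offset, a replicate block and each library left out were alternatives. Use of protein-coding transcripts only, a correction for GC content and most alternatives for the pathway lists were added after seeing the data. The fits were tested on simulated data, and figures drawn with matplotlib 3.10.9.

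The members and lists were chosen with earlier results of these data known. Genes named are Rpl22, the 10 members, every Cdkn2a transcript and other member transcripts holding at least 10% of a member's TPM in any library, up to 3 called genes per list and direction with the smallest p-values, the sort antigens, the 3 genes most like Cdkn2a and Cdk6, and the tested neighbors of Cdkn2a, 2 on each side. Kdm6b, Cdk6-206, Cdk4-201 and the uncalled list genes given with their levels (Rb1, Cdkn1a, Ezh2, Bmi1, Trp53 and Mdm2), with Caap1, Focad, Hacd4, Mrpl48-ps and Pecam1, were added after their values were seen. The libraries carry no molecular identifiers in the sources used here, so no counting interval is given.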

Additional observations from a re-analysis of the deposited data

How the results depend on the processing

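All 7 member calls held in every alternative that kept all 6 libraries. Leaving out 1 library gave 4 to 7 members called (2 to 5 lower), 2622 to 6851 genes, 861 to 4692 transcripts, and 8 to 45 pathway list genes (3 to 27 higher, 4 to 18 lower). The highest of these counts came without Rpl22+/+ replicate 2 and the lowest of genes and transcripts without Rpl22+/+ replicate 3, while genes called numbered 3040 and 2761 without Rpl22-/- replicate 1 and 3 and transcripts at most 1471 without any library but Rpl22+/+ replicate 2. Pathway list genes called numbered 27 (20 higher) with library totals, 30 and 29 (23 higher in each) on log2(TPM + 1) and log2(TPM + 0.1), where these were 28.6% and 27.6% of the listed genes and 32.2% and 32.6% of all genes were called, 9 higher with protein-coding transcripts only, and 14 lower with the GC correction. With the GC correction and the replicate block together they were 35 (17 higher, 18 lower), and 7401 genes were called. Transcripts called numbered 2656 with no filter, and 7117 and 6870 on the TPM scales. Called higher genes rose to 3543 with library totals, where 2222 were lower. The Arf share differed by -1.41 to 11.1 points when 1 library was left out, and was reversed only without Rpl22-/- replicate 3. The causes were not tested.

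The replicate number as a block changed no member call and left 7 members called, with 9 pathway list genes higher in place of 5. Deviations from the group means correlated at 0.479, 0.634 and 0.0974 for replicates 1, 2 and 3 over all tested genes, and at 0.57, 0.715 and 0.129 over the 13202 genes that averaged 50 or more reads. Rpl22+/+ replicate 3 correlated more with Rpl22-/- replicate 1 (0.357 and 0.43). The pairing is borderline, and the numbers were not taken to pair the libraries.

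With 3 libraries a group, exact tests of shares cannot go below 0.1, and low genes such as Cdkn2b rest on few reads.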
